A study of Mus musculus with 18 samples.

Results

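Heterozygous TDP-43 knock-in spinal cord was compared with non-transgenic spinal cord by sequencing of total RNA. The 6 libraries of this comparison, of 18 in the series, were taken by genotype label alone: 3 TDP-43 mice, heterozygous for a knock-in named hTDP-43, and 3 non-transgenic (NTg) C57BL/6 mice. All 6 animals were untreated and 10 months old, and each library came from the whole cord of 1 animal, per the labels. The remaining 12 libraries carried a knock-in named hATXN2-Q22 or hATXN2-Q33, also heterozygous, alone (Q22 and Q33) or with the TDP-43 knock-in (Q22;TDP-43 and Q33;TDP-43), with 3 mice in each group. The labels call the combined genotypes double mutants but name no substitution, and they give no sex, litter, promoter or strain of the knock-in mice, and no further line, so the TDP-43 group stands for 1 allele.

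TDP-43, encoded by Tardbp, is a nuclear RNA-binding protein that represses cryptic exons, sustains the long introns of neuronal pre-mRNAs and binds its own transcript to limit its level. It leaves the nucleus and aggregates in motor neurons of most patients with amyotrophic lateral sclerosis (ALS). Cells meet misfolded protein with 2 main programmes. In the cytosol and nucleus, heat shock factor HSF1 binds heat shock elements and induces Hsp70, Hsp40 and Hsp90 chaperones. In the endoplasmic reticulum (ER), the sensors IRE1, PERK and ATF6 act through factors such as XBP1 to raise ER chaperones and folding enzymes.

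Counts per library ran from 16061359 to 30791143 in TDP-43 cord and from 18578745 to 23980491 in NTg cord, so that 3 counts corresponded to between 0.0974 and 0.187 CPM (a gene's count as a share of its library's total after TMM scaling). Some library properties moved with the results and are given here first. The first was an axis, the main component of the variation within genotypes in these same counts, of which it held 35.6%. It was computed over 15633 genes, and all 29 small noncoding RNA genes among them rose along it. These small noncoding RNA genes summed to 1489 CPM in NTg replicate 1, 464.2 in replicate 2 and 466.5 in replicate 3. In TDP-43 replicates 1, 2 and 3 they summed to 465.1, 1577 and 989.3 CPM. NTg replicate 1 therefore sat with TDP-43 replicates 2 and 3, and TDP-43 replicate 1 with NTg replicates 2 and 3. The log2 CPM values of NTg replicate 1 also followed those of TDP-43 replicate 3 (Pearson's r across genes 0.986) more closely than those of its own group (0.977 and 0.978). The second was sex: Y-linked genes summed to 155.8 and 193 CPM in TDP-43 replicates 1 and 2, but to 1.10 in replicate 3 and to at most 1.98 in the NTg libraries, so all NTg libraries and 1 TDP-43 library read as female. The third was blood: erythroid genes summed to 222.2 CPM in TDP-43 replicate 2, against 29.7 to 81.8 in the other 5 libraries. TDP-43 replicate 2 was also the deepest library. The cord markers Slc6a5 (glycine transporter of inhibitory neurons), Chat (motor neurons) and Aqp4 (astrocytes) were present in all 6.

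**Figure D1:**
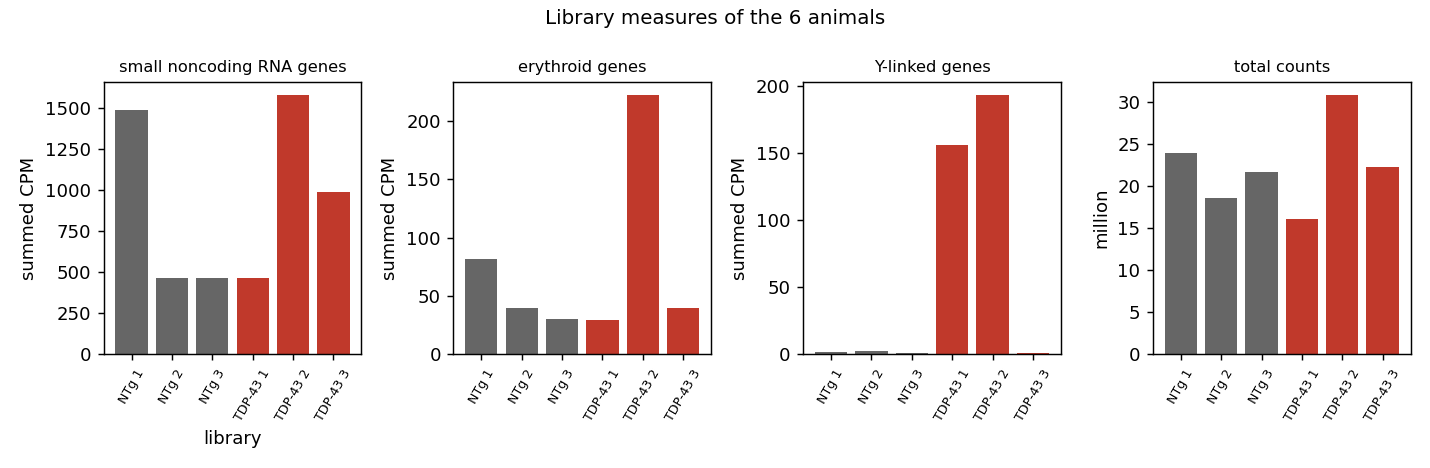
Library measures of the 3 NTg (grey) and 3 TDP-43 (red) animals: summed CPM of small noncoding RNA genes, erythroid genes and Y-linked genes, and total counts, 1 bar per library. TDP-43 replicate 2 was highest on all 4 measures, and the small RNA sum put NTg replicate 1 beside TDP-43 replicates 2 and 3.

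The mouse Tardbp gene (chr4:148612382-148627019, mm10) was close in level in the 2 groups. Tardbp measured 127.5, 127.5 and 123.6 CPM in NTg replicates 1 to 3 and 122.8, 122.3 and 117.9 CPM in TDP-43 replicates 1 to 3. Every TDP-43 value lay under every NTg value, by a small margin. The log2 fold change was -0.06 (SE 0.07, 95% interval -0.20 to 0.08, edgeR adjusted p = 0.997). Reads of the human sequence were not counted separately, so these values do not check the allele in each animal. Atxn2, a binding partner of TDP-43, overlapped between the groups (182.4 ± 12.6 CPM in NTg and 180.7 ± 10.7 CPM in TDP-43 cord, SD, n = 3 each).

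Across 20635 genes tested, edgeR's quasi-likelihood test called 0 genes higher (0%) and 0 lower (0%) at an adjusted p under 0.05. At an unadjusted p under 0.05 there were 424 genes with higher values (2.05%) and 449 with lower values (2.18%), 873 in all (4.23%). DESeq2 on the same counts called 6 genes, all higher (Hspa1b, Ahsa2, Hspa1a, Dnajb1, P4ha1 and Ccdc117), and limma-voom with sample weights called 0. The smallest adjusted p with edgeR was 0.0935, reached by Hspa1b and Ahsa2. For genes averaging 1 CPM or more in either group the median SE of the log2 fold change was 0.16, so small changes lay within the error. The libraries of the groups did not overlap for 751 genes with higher (3.64%) and 860 with lower values (4.17%) in TDP-43 cord, and the log2 fold change was above 0 for 51.5% of all genes. Of all genes, 437 (2.12%) had a log2 fold change of at least 1 in size.

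Chaperone genes headed the list: of the 4 genes with the smallest p, all had higher values in TDP-43 cord and all belonged to the heat shock list. Hspa1b and Hspa1a encode the inducible Hsp70 proteins, Dnajb1 the Hsp40 that feeds them with substrate, and Ahsa2 a member of the AHA1 family that activates the Hsp90 ATPase. The 150 bases before the start of each are shown (RefSeq, GRCm38.p6, strand of the gene, 5′ to 3′) because these genes had higher values together and heat shock elements are built of GAA and TTC blocks. Capitals mark matches to the core motifs GAANNTTC and TTCNNGAA, each of which is its own reverse complement, so that both strands are searched at once; the motifs can overlap each other. The stretches are chr17:34959239-34959388 for Hspa1b, chr17:34972157-34972306 for Hspa1a, chr8:83608025-83608174 for Dnajb1 and chr11:23498040-23498189 for Ahsa2.
Hspa1b: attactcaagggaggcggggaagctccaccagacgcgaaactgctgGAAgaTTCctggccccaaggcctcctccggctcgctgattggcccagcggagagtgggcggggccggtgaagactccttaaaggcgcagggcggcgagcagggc
Hspa1a: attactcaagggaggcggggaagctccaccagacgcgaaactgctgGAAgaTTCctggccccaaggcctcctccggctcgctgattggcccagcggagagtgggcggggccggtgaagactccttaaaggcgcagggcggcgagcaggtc
Dnajb1: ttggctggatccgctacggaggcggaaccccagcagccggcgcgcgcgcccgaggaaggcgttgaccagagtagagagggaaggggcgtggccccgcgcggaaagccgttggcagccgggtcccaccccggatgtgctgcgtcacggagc
Ahsa2: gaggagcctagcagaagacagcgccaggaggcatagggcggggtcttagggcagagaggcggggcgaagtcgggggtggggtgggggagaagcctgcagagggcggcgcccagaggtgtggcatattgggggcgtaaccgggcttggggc
Hspa1b and Hspa1a held the same match at the same place, and their 300-base windows were identical at 98.7% of positions. The stretches of Dnajb1 and Ahsa2 held no match. In windows of 300 bases (250 before to 50 after the start), either motif occurred in 17 of the 39 heat shock genes with a window. Of 32851 windows genome-wide, 15.1% held either motif. At least 3 matches occurred in 4 of those 39 genes and in 0.256% of all windows. A gene was counted if any of its windows matched, and some genes had several. The gene counts and the window shares are therefore not like for like. Hspd1 and Hspe1, both among those 4, share the same matches in overlapping windows. A match is a run of letters and shows no binding.

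Hspa1b (chr17:34956436-34959238) measured 0.844, 0.522 and 0.579 CPM in NTg replicates 1 to 3, and 4.10, 26.6 and 3.13 CPM in TDP-43 replicates 1 to 3. All 3 TDP-43 animals lay above all NTg animals, and replicate 2 stood far above the other 2. The log2 fold change was 4.11 (SE 0.67, edgeR adjusted p = 0.0935). Without TDP-43 replicate 2 it was 2.45, so that this 1 animal carried much of the size and the other animals still separated from the controls. In the 12 libraries with an ATXN2 form Hspa1b ran from 0.42 to 2.03 CPM, so every TDP-43 animal was above those libraries too.

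Hspa1a (chr17:34969190-34972156), the neighbouring copy, measured 1.96, 2.82 and 2.40 CPM in NTg and 6.80, 30.6 and 4.67 CPM in TDP-43 cord, in the same order of animals. Again the groups did not overlap and replicate 2 was the extreme. The log2 fold change was 2.57 (SE 0.48, edgeR adjusted p = 0.29), and 1.26 without replicate 2. The copies are nearly identical and read pairs that match several places were left out of the counts, so the levels of both are understated and their split is uncertain.

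Dnajb1 (chr8:83608193-83612653) measured 23.3, 16.4 and 16.8 CPM in NTg and 26.8, 59.1 and 36.8 CPM in TDP-43 cord. The lowest TDP-43 animal was close above the highest NTg animal. Its log2 fold change was 1.12 (SE 0.22, edgeR adjusted p = 0.323), and 0.75 without replicate 2. Ahsa2 (chr11:23487882-23498030) was more even, at 21.1, 23.4 and 23.2 CPM in NTg and 36.7, 42.9 and 32.6 CPM in TDP-43 cord. No TDP-43 animal stood apart there, and the log2 fold change of 0.73 (SE 0.12, edgeR adjusted p = 0.0935) stayed at 0.62 without replicate 2.

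**Figure D2:**
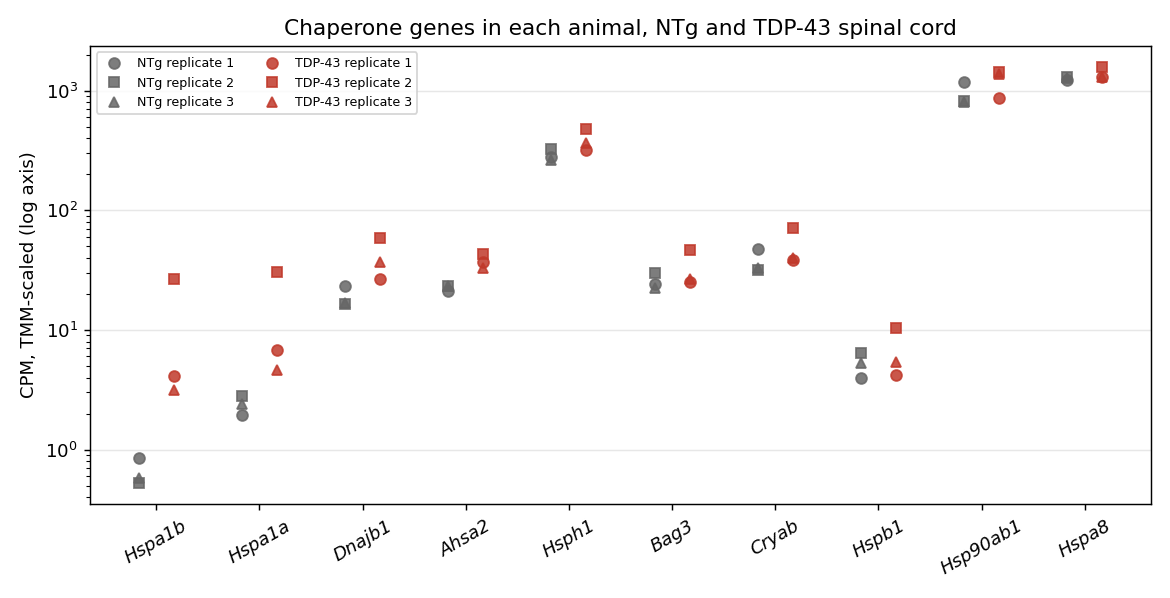
CPM (TMM-scaled, log axis) of 10 chaperone genes in each NTg (grey) and TDP-43 (red) animal, with 1 symbol shape per replicate number; levels are to be compared within a gene. Hspa1b, Hspa1a, Dnajb1 and Ahsa2 separated the groups, and TDP-43 replicate 2 (red square) was the highest point for each of the 10 genes.

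Whether these genes passed depended on the libraries and terms used. Without TDP-43 replicate 1 edgeR called 3 genes higher (Dnajb1, Hspa1b and Hspa1a), without replicate 3 it called 3 (Ahsa2, Hspa1b and Hspa1a), and without replicate 2 it called 0, with a smallest adjusted p of 0.305. With the score of each library on the small-RNA axis as a term, a setting chosen after the data were seen, edgeR called 3 genes higher: Dnajb1 (log2 fold change 0.98, adjusted p = 0.0275), Ahsa2 (0.74, adjusted p = 0.0405) and Hspa1b (3.79, adjusted p = 0.0487). The axis came from these same counts, so the term takes up part of the spread by construction. Over all genes, 612 then had an unadjusted p under 0.05 with higher values, against 424 in the main fit. These 3 calls are therefore no independent support. With the Y-linked level as a term 0 genes passed and the smallest adjusted p was 0.74, while the log2 fold changes were 3.57 for Hspa1b, 1.06 for Dnajb1 and 0.62 for Ahsa2. All NTg libraries lacked Y-linked expression, so a male effect and the genotype cannot be told apart in TDP-43 replicates 1 and 2. TDP-43 replicate 3, which like the controls showed no Y-linked expression, was above every NTg animal for all of Hspa1b, Hspa1a, Dnajb1 and Ahsa2. That restates the separation already given for these genes, which were taken for their small p in this comparison. An effect of sex on them was not tested.

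Over the whole heat shock list, 47 of 49 genes were measured above the filter. Of these, 41 had a log2 fold change above 0 (51.5% of all genes did), 6 had an unadjusted p under 0.05 with higher values (background 2.05%), 0 with lower values (background 2.18%) and 5 separated the groups upward (background 3.64%). The median log2 fold change was 0.17, against 0.01 over all genes. No member passed at an adjusted p under 0.05 with edgeR. The 3 animals differed: relative to the NTg mean the median member was at -0.01 log2 units in replicate 1, 0.34 in replicate 2 and 0.13 in replicate 3. Replicate 2 exceeded all NTg libraries for 38 of the 47 genes (27.8% of all genes did so in that library), replicate 3 for 22 (26.7%) and replicate 1 for 10 (24.4%). Without replicate 2 the median was 0.06, 33 genes were above 0 and 4 had an unadjusted p under 0.05. The background shares above are those of the main fit. The count of 4 is not split by direction, so the shares for higher or lower values alone are not its background. In the main fit 4.23% of all genes had such a p in either direction. That share was smaller without replicate 2. The erythroid sum was highest in that same library, and its part in the chaperone values was not tested.

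The other Hsp70 and Hsp110 chaperones differed less in size. Hsph1, the Hsp110 that reloads Hsp70 with nucleotide, measured 280.3, 328.3 and 262.2 CPM in NTg and 319.1, 476.4 and 365.6 CPM in TDP-43 cord. The lowest TDP-43 value lay inside the NTg range (log2 fold change 0.42, SE 0.14, edgeR adjusted p = 0.997). Hspa8, the constitutive Hsc70, measured 1221, 1312 and 1277 CPM against 1309, 1586 and 1295, and only replicate 2 left the NTg range. Mitochondrial Hspa9 and the testis-enriched Hspa1l and Hspa2 had log2 fold changes between 0.06 and 0.25 with SEs from 0.10 to 0.52. Hspa13 had the lowest value of the list, at -0.24 (SE 0.14).

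Among 8 Hsp40 co-chaperones, 7 had a log2 fold change above 0, with a median of 0.21. Dnajb2, a neuronal Hsp40 that hands clients to the proteasome, measured 80.4, 70.6 and 75.4 CPM in NTg and 78.4, 90.1 and 101.4 CPM in TDP-43 cord, where replicate 1 stayed within the control range. All 11 Hsp90 genes and co-chaperones had values above 0 (median 0.26), but only Ahsa2 separated the groups. Hsp90ab1, the constitutive cytosolic Hsp90, measured 1174, 819.8 and 810.5 CPM in NTg and 871.2, 1431 and 1388 CPM in TDP-43 cord. NTg replicate 1 and TDP-43 replicate 1 crossed over there, as they did on the small-RNA axis.

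Small heat shock proteins and nucleotide exchange factors differed among themselves in which animals were high. Bag3, which couples Hsp70 to selective autophagy, measured 24.2, 30.2 and 22.3 CPM in NTg and 25.1, 46.8 and 26.5 CPM in TDP-43 cord. Hspb1 (Hsp27) measured 3.99, 6.42 and 5.25 against 4.22, 10.4 and 5.40 CPM. Cryab (alpha B-crystallin) measured 47.1, 31.7 and 33.2 against 38.4, 70.5 and 40.2 CPM. In each of these 3 genes replicate 2 alone left the NTg range, and the edgeR adjusted p was 0.997. Bag2, a co-chaperone that inhibits the ubiquitin ligase CHIP, instead separated the groups by a small margin, at 6.03, 6.21 and 5.74 against 6.85, 6.66 and 6.50 CPM (log2 fold change 0.15, SE 0.19). Bag5 and Hspbp1, both exchange factors, were above the NTg range in replicates 2 and 3, Hspb6 in replicate 3 alone and Hspb8 in no animal. The transcription factor gene Hsf1 was at 12.6 ± 0.443 CPM in NTg and 12.95 ± 0.516 CPM in TDP-43 cord (SD, n = 3 each), with overlap.

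**Figure D3:**
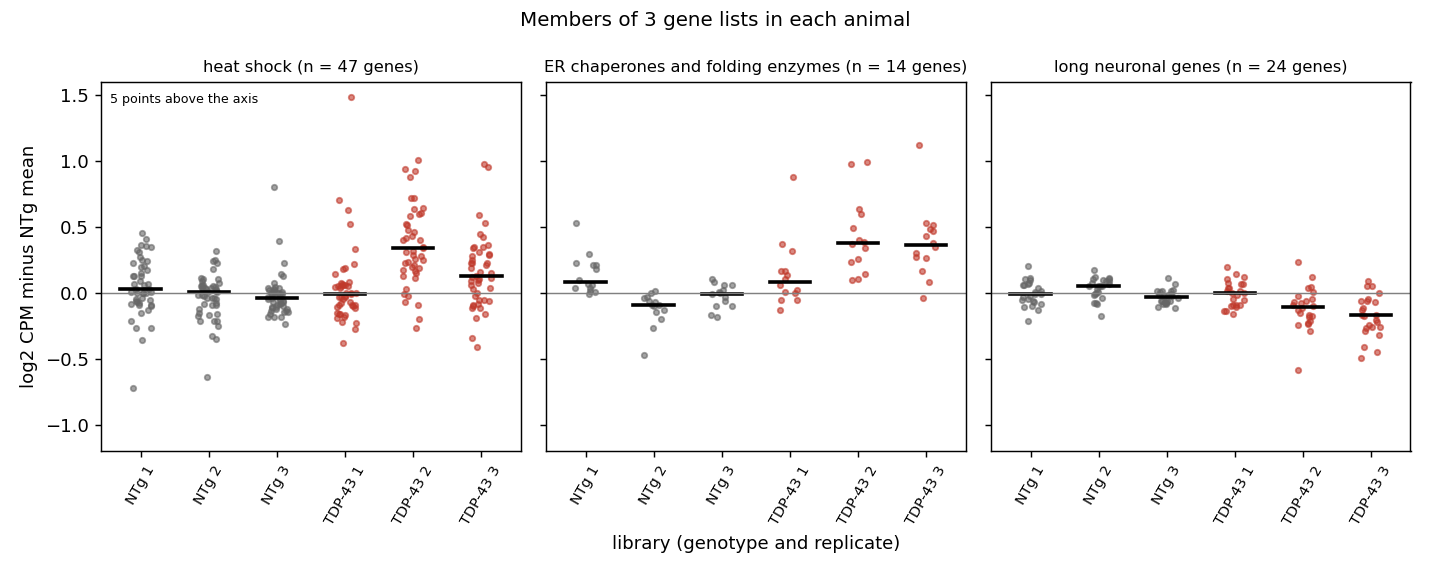
Members of the heat shock list (47 genes), the ER chaperone list (14) and the long neuronal list (24) in each animal, as log2 CPM minus the NTg mean of the gene, with a black bar at the median; 5 points of the heat shock list lie above the axis. The heat shock median was 0.34 in TDP-43 replicate 2 and near 0 in replicate 1, whereas the ER median was 0.38 and 0.36 in replicates 2 and 3.

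ER chaperones and folding enzymes had higher values mainly in TDP-43 replicates 2 and 3. All 14 had a log2 fold change above 0 (median 0.30), 8 had an unadjusted p under 0.05 with higher values (background 2.05%) and 7 separated the groups upward (background 3.64%), while no member passed at an adjusted p under 0.05 with edgeR. Replicates 2 and 3 exceeded all NTg libraries for 14 and 13 of the 14 genes (27.8% and 26.7% of all genes), and replicate 1 for 7 (24.4%). Without replicate 2 the median was 0.23, with 13 genes above 0 and 3 at an unadjusted p under 0.05. With the small-RNA axis as a term it was also 0.23, and 9 members had an unadjusted p under 0.05. The background of 2.05% is that of the main fit. The member counts of these settings are not split by direction and are not to be set against 2.05%. In the main fit 4.23% of all genes had such a p in either direction. That share was smaller without replicate 2 and larger with the axis term. With the axis term 612 of 20635 genes had such a p with higher values, against 424 in the main fit. The number with lower values was larger too, so the axis term raised such counts over all genes as well.

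Hspa5 (BiP), the ER Hsp70 that holds the stress sensors inactive, measured 250.7, 227.3 and 253.9 CPM in NTg and 303.9, 322.4 and 300.7 CPM in TDP-43 cord. The groups did not overlap and no animal stood apart (log2 fold change 0.34, SE 0.10, edgeR adjusted p = 0.997). Calr (calreticulin), a lectin chaperone of glycoproteins, measured 459.2, 461.0 and 463.5 CPM against 508.2, 583.9 and 621.8 CPM, with a log2 fold change of 0.31 (SE 0.10). Hsp90b1 (GRP94), the ER Hsp90, ran from 537.8 to 557.6 CPM in NTg and from 592.9 to 661.2 CPM in TDP-43 cord.

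Creld2, an ER stress-inducible disulfide isomerase, measured 4.80, 2.35 and 3.16 CPM in NTg and 6.15, 6.56 and 7.27 CPM in TDP-43 cord, and had the largest log2 fold change of the 14 genes (0.94, SE 0.25). Sdf2l1, a BiP cofactor, measured 4.61, 3.86 and 3.52 against 5.16, 7.98 and 5.60 CPM. The trophic ER protein gene Manf measured 19.7, 17.4 and 20.8 against 21.7, 30.1 and 23.3 CPM. Each of these separated the groups. Pdia3, Pdia4 and Pdia6, the disulfide isomerases, overlapped because TDP-43 replicate 1 lay within the NTg range. Dnajb9 and Canx had log2 fold changes of 0.06 and 0.07 with SEs of 0.11 and 0.09.

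Among the 8 sensors and degradation factors, Xbp1 (chr11:5520659-5525893) was 1 of the 10 genes with the smallest p of all genes with higher values. It measured 20.5, 16.1 and 18.4 CPM in NTg and 23.7, 26.6 and 27.3 CPM in TDP-43 cord, without overlap (log2 fold change 0.50, SE 0.12, edgeR adjusted p = 0.799). Counts per gene do not show the spliced form of Xbp1. The sensor genes Atf6, Ern1 (IRE1) and Eif2ak3 (PERK) had log2 fold changes of -0.07, 0.06 and 0.08, each within 1 SE of 0. In the integrated stress response list of 16 genes the median was 0.02. Atf4 and its target Ddit3 (CHOP) overlapped between the groups (log2 fold changes 0.26 and 0.59, SEs 0.13 and 0.27).

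Other genes among the 10 with higher values came from several programmes. P4ha1, a collagen prolyl hydroxylase induced by hypoxia, measured 33.7, 27.4 and 33.1 CPM in NTg and 47.5, 69.1 and 49.7 CPM in TDP-43 cord (log2 fold change 0.82, SE 0.17, edgeR adjusted p = 0.547, 0.63 without replicate 2). Vegfa, the endothelial growth factor, measured 44.4, 42.4 and 40.2 against 58.8, 64.6 and 63.0 CPM, without overlap and with no animal apart (0.55, SE 0.15, adjusted p = 0.997). Over the 11 hypoxia genes tested, these included, the median was 0.06, with 3 higher (background 2.05%) and 1 lower (background 2.18%) at an unadjusted p under 0.05. The third of the higher genes was Ankrd37, a hypoxia-induced ankyrin repeat gene at a low level (0.844, 0.626 and 0.401 against 1.23, 1.11 and 1.38 CPM, log2 fold change 0.97, SE 0.34), without overlap. The 1 lower was Ero1l, an ER oxidase gene (37.5, 42.2 and 40.9 against 35.5, 34.9 and 34.7 CPM).

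Ccdc117, a coiled-coil protein gene, measured 10.8, 9.60 and 11.9 CPM in NTg and 16.7, 19.5 and 14.98 CPM in TDP-43 cord. Dedd2, a death effector domain gene, measured 10.5, 7.98 and 9.17 against 12.8, 13.9 and 15.8 CPM. Egr1, an activity-induced transcription factor, measured 16.4, 10.0 and 13.4 against 17.7, 22.5 and 22.4 CPM. All separated the groups, with edgeR adjusted p from 0.547 to 0.799. Fos and Bdnf, also induced by neuronal activity, did so too, at 6.30, 5.58 and 10.2 against 10.5, 13.4 and 10.5 CPM for Fos and 3.15, 3.34 and 3.74 against 5.04, 4.65 and 5.32 CPM for Bdnf. Across 27 immediate early genes, 19 were above 0 (median 0.15) and 4 had an unadjusted p under 0.05, all higher (background 2.05%). The labels give no collection time.

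Gabra2, a GABA-A receptor subunit gene, was the last of the 10, at 87.0, 80.6 and 80.4 CPM in NTg and 97.7, 139.5 and 136.4 CPM in TDP-43 cord (log2 fold change 0.59, SE 0.14, edgeR adjusted p = 0.799). Gabra2 is known to carry a private mutation in C57BL/6J mice that lowers its expression. Its mean was 140.4 ± 12.3 CPM in Q22 and 168.5 ± 29.2 in Q22;TDP-43, but 94.5 ± 13.99 in Q33 and 87.2 ± 8.50 in Q33;TDP-43 (SD, n = 3 each). Wdfy1, also known to differ among C57BL/6 substrains, was at 14.1, 15.97 and 15.3 against 17.8, 25.7 and 25.9 CPM. Nnt, deleted in part in C57BL/6J, overlapped (2.74 ± 0.469 against 2.69 ± 0.343 CPM). Genotype and strain background cannot be told apart for these genes.

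The 10 genes with the smallest p and lower values in TDP-43 cord (mean of at least 1 CPM) were mostly gene models and weakly expressed genes. Zc3h6, a CCCH zinc finger gene, measured 40.3, 34.6 and 35.9 CPM in NTg and 26.4, 22.1 and 24.4 CPM in TDP-43 cord (log2 fold change -0.61, SE 0.14, adjusted p = 0.799 with edgeR). The zinc finger gene Zkscan2 measured 24.4, 29.3 and 28.8 against 22.96, 18.9 and 16.6 CPM, and the relaxin receptor gene Rxfp1 8.48, 5.79 and 7.35 against 5.10, 3.74 and 4.26 CPM. Cracr2a, a regulator of calcium entry, measured 3.53, 3.81 and 3.96 against 1.93, 2.26 and 2.31 CPM. Ankrd23, best known from muscle, measured 0.883, 1.36 and 0.890 against 0.293, 0.370 and 0.365 CPM. The other five (9430038I01Rik, B230303O12Rik, D430020J02Rik, Gm43848 and Gm33594) had NTg means from 2.69 to 7.38 CPM and log2 fold changes from -0.97 to -0.65. All 10 separated the groups, which the choice by p favours.

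Long neuronal genes were examined because TDP-43 is known to sustain them. Of 24 tested, 22 had a log2 fold change below 0, with a median of -0.10, and 3 had an unadjusted p under 0.05 with lower values (background 2.18%). Efna5, an axon guidance ligand, measured 21.3, 25.6 and 21.6 CPM in NTg and 20.3, 18.6 and 16.7 CPM in TDP-43 cord, without overlap (log2 fold change -0.30, SE 0.12, adjusted p = 0.997 with edgeR). The synaptic adhesion gene Nlgn1 (86.3, 102.7 and 95.4 against 88.2, 85.02 and 71.1 CPM) and the potassium channel subunit gene Dpp10 (93.6, 107.6 and 101.8 against 94.7, 85.7 and 82.5 CPM) overlapped through TDP-43 replicate 1. The median member was at 0.00 log2 units in replicate 1, -0.11 in replicate 2 and -0.17 in replicate 3. With the small-RNA axis as a term the list median was -0.06, again with 2 genes above 0. It was -0.05 without TDP-43 replicate 3 and -0.06 without NTg replicate 2, and in both cases 0 members had an unadjusted p under 0.05.

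Known splicing targets of TDP-43 showed no common direction at the level of whole genes. Of 22 tested, 12 were above 0 and the median was 0.02. Adipor2, an adiponectin receptor gene, had the smallest p, at 83.6, 78.4 and 94.5 CPM in NTg and 105.0, 112.5 and 117.7 CPM in TDP-43 cord (log2 fold change 0.39, SE 0.17, edgeR adjusted p = 0.997). Counts over all exons of a gene do not show cryptic exon use, which was not analysed here. The 35 RNA-binding protein genes had a median of 0.04, and 33 ALS genes a median of 0.08. Of the 35, 1 (Hnrnpa2b1) had an unadjusted p under 0.05 with higher values (2.86%, background 2.05%). Among 28 stress granule genes and ATXN2 partners (median 0.01), the RNA helicase gene Ddx3x measured 289.3, 280.3 and 290.9 against 205.8, 221.7 and 252.5 CPM. Ddx3x is X-linked and escapes inactivation. The TDP-43 library without Y-linked expression had the highest of the 3 TDP-43 values, 252.5 CPM, which was still below every NTg value. An effect of sex on Ddx3x was not tested.

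Motor neuron genes did not move together. Over 20 genes the median was -0.02, with 8 above 0. Chat, the acetylcholine-synthesising enzyme, measured 13.3, 23.4 and 15.2 CPM in NTg and 15.2, 21.8 and 15.6 CPM in TDP-43 cord. The summed level of the list ran from 695.5 to 941.9 CPM in NTg and from 652 to 1008 CPM in TDP-43 cord, the highest being replicate 2. Without replicate 2 the median was -0.33 with 2 genes above 0, and without replicate 1 it was 0.13 with 16 above 0, so no direction held over the animals. Only Lhx3, a motor neuron and V2a interneuron identity factor, had an unadjusted p under 0.05 (0.768, 1.20 and 0.801 against 0.234, 0.438 and 0.244 CPM). It is 1 of the 20 genes (5%), where 2.18% of all genes had such a p with lower values. In whole tissue, fewer cells of a type and less RNA per cell cannot be told apart.

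Other neuronal lists lay near 0: the median was 0.02 for 18 pan-neuronal and neurofilament genes, -0.01 for 22 synaptic vesicle genes, -0.02 for 22 channel and glutamate receptor genes and -0.03 for 16 inhibitory neuron genes. No member of these lists had an unadjusted p under 0.05. Dorsal horn excitatory neuron genes had 12 of 16 values below 0 (median -0.19), again with no member at an unadjusted p under 0.05. Hox genes used in the caudal cord, which report how much lumbosacral cord a sample holds, had a median of -0.96 over 6 genes with wide errors. Hoxc10 measured 13.2, 0.678 and 6.10 CPM in NTg and 4.75, 0.471 and 3.37 CPM in TDP-43 cord.

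Glial genes differed in a few single members, and no member of a glial list passed. Serpina3n, a protease inhibitor that marks reactive astrocytes, measured 22.2, 26.9 and 30.2 CPM in NTg and 48.7, 50.5 and 53.9 CPM in TDP-43 cord. The groups stood well apart and the 3 TDP-43 animals lay close together, yet the gene did not pass over all genes (log2 fold change 0.95, SE 0.29, edgeR adjusted p = 0.997). It also had higher values with TDP-43 in libraries that share no sample with this comparison, at 0.52 (SE 0.29) in Q22;TDP-43 against Q22 and 0.85 (SE 0.29) in Q33;TDP-43 against Q33, neither past the threshold (adjusted p = 0.971 and 0.137). Over the 15 reactive astrocyte genes tested, Serpina3n included, the median was -0.07, with 7 above 0. Aspg, an asparaginase gene, also separated the groups upward (1.46, 1.72 and 1.69 against 1.93, 1.99 and 2.76 CPM, log2 fold change 0.46, SE 0.23), and the other 13 did not. Over all genes, 3.64% separated upward, so a list of 15 can hold such a gene without any bearing on astrocytes.

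P2ry13, a purinergic receptor of homeostatic microglia, measured 5.87, 6.16 and 6.63 CPM in NTg and 4.39, 3.84 and 4.59 CPM in TDP-43 cord (log2 fold change -0.54, SE 0.18, adjusted p = 0.997 with edgeR). The median was 0.01 over 17 microglial genes and 0.02 over 21 disease-associated microglial genes. Of the 21, 12 were above 0, 0 had an unadjusted p under 0.05 and 1 separated the groups downward (4.76%, background 4.17%). Clec7a, which marks the disease-associated state and was named after its values were seen, measured 2.73, 3.55 and 3.78 against 1.99, 1.78 and 2.40 CPM. Interferon response genes had 19 of 27 values below 0 (median -0.17), with 0 at an unadjusted p under 0.05. Myelin genes had a median of 0.06 over 19 genes, and Neu4 alone of 13 precursor genes had an unadjusted p under 0.05 (5.72, 5.69 and 4.50 against 7.44, 6.46 and 6.70 CPM). That is 7.69% of the list from 1 gene, where 2.05% of all genes had such a p with higher values.

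Endothelial genes summed highest in TDP-43 replicate 2. Of 14 endothelial genes, 13 were above 0 (median 0.19), and the summed level was 488.2, 340.7 and 456.4 CPM in NTg and 427, 583.4 and 449.1 CPM in TDP-43 cord. Of 9 mural cell genes, 4 had an unadjusted p under 0.05 with higher values (background 2.05%), and 0 separated the groups (background 3.64%). Acta2, the smooth muscle actin, measured 1.38, 1.20 and 0.846 CPM against 1.82, 3.20 and 1.34 CPM. Without replicate 2 the endothelial median was 0.02, with 7 genes above 0. Erythroid genes had a median of 0.78 with replicate 2 and -0.60 without it. Glucocorticoid response genes had 13 of 15 values above 0 (median 0.18). Among them Sgk1 measured 28.9, 25.5 and 46.1 against 58.7, 76.1 and 27.6 CPM, where TDP-43 replicate 3 lay within the control range.

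The same allele was present in 2 further pairs of groups that share no library with this comparison, Q22;TDP-43 against Q22 and Q33;TDP-43 against Q33. Over all genes edgeR called 0 in the first pair (0%, with 851 genes or 4.12% at an unadjusted p under 0.05) and 184 in the second (0.892%). Over all genes, 47.3% of values were above 0 beside Q22 and 48.5% beside Q33. The heat shock list had a median log2 fold change of -0.07 with 15 of 47 values above 0 beside Q22. Beside Q33 its median was 0.15, with 31 of 47 above 0. The ER list had medians of 0.02 and -0.02, with 8 and 7 of 14 values above 0. The long neuronal list had medians of -0.01 in both pairs. Beside Q33, 8 heat shock members had an unadjusted p under 0.05 with higher and 4 with lower values, where 17.7% of all genes had such a p in either direction. The heat shock median was thus near that of TDP-43 cord beside Q33 and below 0 beside Q22, and the ER median was near 0 in both pairs.

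The chaperones that headed the list had smaller values there. Hspa1b had a log2 fold change of 0.92 (SE 0.69) beside Q22 and -0.46 (SE 0.66) beside Q33, and the adjusted p of its difference from TDP-43 against NTg was 0.942 and 0.178. Ahsa2 had 0.24 (SE 0.12) and 0.09 (SE 0.12). Dnajb1 had 0.05 (SE 0.22) and 0.15 (SE 0.21). Xbp1, Hspa5 and Creld2 had values between -0.27 and 0.04. Of the 10 genes chosen for higher values, 9 were above 0 beside Q22 and 6 beside Q33. Of the 10 chosen for lower values, 6 and 7 were below 0. Over all genes, 47.3% and 48.5% of values were above 0 in these pairs. Gm33594, a gene model, was below 0 in all 3 pairs (-0.65, -0.48 and -0.55).

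**Figure D4:**
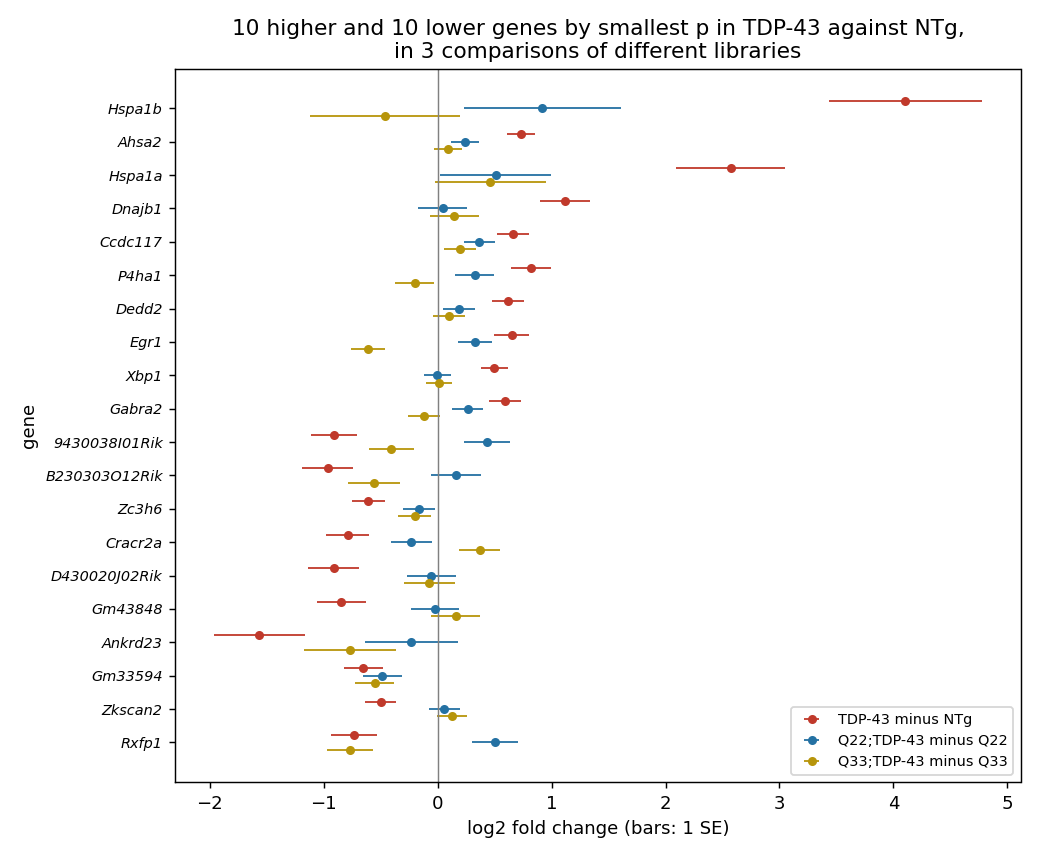
Log2 fold change (bars, 1 SE) of the 10 genes with higher and the 10 with lower values that had the smallest p in TDP-43 minus NTg (red), and of the same genes in Q22;TDP-43 minus Q22 (blue) and Q33;TDP-43 minus Q33 (ochre). The red values are large because they chose the genes; Hspa1b, for example, was at 4.11 in red, 0.92 in blue and -0.46 in ochre.

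Tests of the difference between pairs gave no called gene with edgeR. For the interaction with Q22, 0 genes passed (0%), 828 had an unadjusted p under 0.05 (4.01%), the smallest adjusted p was 0.444 and DESeq2 called 2. For the interaction with Q33, 0 passed (0%), 2674 had an unadjusted p under 0.05 (13%), the smallest adjusted p was 0.124, DESeq2 called 94 and limma-voom 9. Without TDP-43 replicate 2 edgeR called 48 for Q33. Cpne5, a calcium-binding copine gene, had the smallest p: its log2 fold change was 0.13 (SE 0.20) in TDP-43 against NTg and -1.73 (SE 0.22) in Q33;TDP-43 against Q33. Egr1 was second, at 0.65 (SE 0.15) against -0.61 (SE 0.15), with an adjusted p of 0.13 for the difference. Mitochondrial ribosomal RNA made up 18.26 to 23.35% of counts in Q33 and 23.36 to 28.75% in Q33;TDP-43. With that share as a term 0 genes passed, and 1070 had an unadjusted p under 0.05.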

How the data were processed

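Total RNA of whole spinal cord was sequenced after depletion of ribosomal RNA, with a stranded kit, per the labels' protocols. The authors deposited 1 table of raw counts per gene: read pairs were trimmed with Trim Galore 0.4.1 and aligned with TopHat2 to mm10, per the submitters' processing notes, and counted over exons with featureCounts 1.6.1 and GENCODE vM19, strand-specific, without multi-mapping pairs, per the file headers. Multi-mapping pairs are thereby lost from near-identical genes. Groups were taken from the labels.

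From these counts, edgeR 4.0.16 (R 4.3.3; TMM scaling, filterByExpr, 20635 of 54446 genes kept) was fitted to all 18 libraries, so that the 6 groups share 1 estimate of the spread. The quasi-likelihood test gave p-values, adjusted by Benjamini-Hochberg over all genes tested, with a threshold of 0.05. CPM are TMM-scaled, and log2 CPM used a prior count of 2. The exact permutation test of 3 against 3 libraries cannot go below p = 0.1 and was not used. Alternatives were DESeq2 1.42.0, limma-voom (limma 3.58.1), other scalings, other filters, library properties as terms and leaving out each library. The main fit was tested on simulated counts. Promoter windows came from RefSeq (GRCm38.p6).

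The members and gene lists were chosen with earlier results of these data known. Genes were named by rule: Tardbp and Atxn2, the 10 smallest p in each direction with a mean of at least 1 CPM, the heat shock list, up to 4 members with the smallest p of every other list, and the top interaction genes. Clec7a, Nnt, Chat, the ER stress sensors, further ER chaperones and the cell type markers were added after their values were seen. The labels name 1 sample per animal but no litter or extraction day, so p-values measure the spread between these animals. Some items are not reported here.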

Additional observations from a re-analysis of the deposited data

How the results depend on the processing

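The count of 0 genes higher in TDP-43 than in NTg cord became 69 when every gene with at least 1 count was fitted. In that fit the prior degrees of freedom were infinite, so no gene kept a spread of its own. The 69 included the Y-linked genes Ddx3y, Uty, Kdm5d and Eif2s3y and the hemoglobin genes Hba-a1, Hba-a2 and Hbb-bs. The count higher was 6 with DESeq2 and 3 with the library axis as a term, and ran from 0 to 3 when 1 library was left out. The count lower became 15 with every gene and stayed at 0 otherwise. For the interaction with Q22, 193 genes were called with every gene and 2 with DESeq2. For the interaction with Q33, 533 were called with every gene, 94 with DESeq2, 19 with the library axis, 9 with limma-voom, and from 0 to 48 when 1 library was left out (48 without TDP-43 replicate 2, 3 without NTg replicate 1 and 2 without Q33;TDP-43 replicate 3). Apart from the settings' own construction, the cause was not tested. The main fit called 0 genes, so it held no called result whose direction could change under these alternatives. The share of genes above 0 was 51.5% with TMM, 52% with DESeq2's size factors and 49% with library totals. No paired analysis was possible because the labels number animals within a group and tie no animal to one in another group. With 3 animals a group and a median SE of 0.16, small changes lay within the error. Sex, blood, the library axis and the level of caudal Hox genes differed between the animals.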
